A study of Mus musculus with 8 samples.

Results

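KAP1-bound regions of mouse embryonic fibroblasts (MEF) were described from the 372 peaks called for KAP1 in wild-type (WT) cells. The members are every peak of the one KAP1 list, in which a chromatin immunoprecipitation and sequencing (ChIP-seq) library made with an anti-KAP1 antibody was compared with a WT MEF library without antibody, the input. They are 372 of the 38359 peaks in the 5 peak lists of the series. The other lists hold H3K9me3 and H4K20me3 peaks of WT cells and of MEF labelled as KAP1 knockout (KO), and serve here as context. Each of the 8 samples, 5 precipitations and 3 inputs, is the only library of its group. Cells of all groups were fixed in 1% formaldehyde for 10 min and their chromatin was sheared to 200 to 400 bp. The sources used here do not give the strain, the embryos behind each culture or the way KAP1 was removed in the KO cells. Peak lists carry no expression values, so the fibroblast label could not be compared with marker genes.

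KAP1, also named TRIM28, is a corepressor without a sequence-specific DNA-binding domain of its own. KRAB zinc finger proteins bind their DNA motifs and bring KAP1 there. KAP1 in turn attracts SETDB1, which trimethylates lysine 9 of histone H3, and HP1 proteins, which bind that mark. Endogenous retroviruses, imprinting control regions and the 3′ ends of zinc finger genes are known places of KAP1 binding. H4K20me3 is a further mark of heterochromatin, laid down by the SUV420H enzymes.

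KAP1 peaks were short, and a few of them stood far above the rest in score. The score is the authors' own value for a peak, and serves here to order the peaks of a list and to set thresholds in it. Over the 372 peaks the length ran from 237 to 2549 bp, with a median of 491 bp (95% interval of the median 472 to 509 bp). Lengths of 300 to 700 bp made up 78.2% of the list (291 peaks). In all the peaks covered 209 kb, and 21 of them were longer than 1 kb. The score ran from 50.1 to 3100, with a median of 92.2 (interval 81.1 to 103). The highest 10% of peaks began at a score of 417 and the highest 5% at 721. There were 173 peaks with a score of at least 100, 85 with at least 200 and 14 with at least 1000. At the other end, 88 peaks scored under 60, close to the lowest value of the list.

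**Figure D1:**
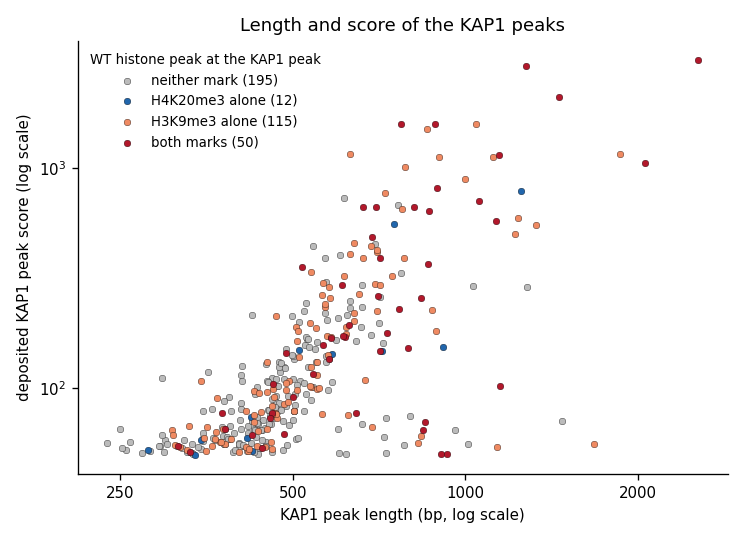
Each point is 1 of the 372 KAP1 peaks, with its length in bp (x, log scale) and its deposited score (y, log scale), coloured by the WT histone peaks that overlap it. Score rises with length (Spearman rho 0.70 over 372 peaks), and a few long peaks stay at low scores.

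Longer peaks had higher scores. The rank correlation of length and score was 0.70 over the 372 peaks. Both values come from the same reads and the points share 1 library, so it is a description of the list. From the lowest to the highest quartile of score, with 93 peaks in each, the median length was 388, 454, 514 and 696 bp. The plot of length against score shows a small set that departs from this order, long peaks with low scores. There were 4 peaks over 1 kb with a score under 100. They lay at chr5:16973924-16975395 (1472 bp, score 71.2), at chr1:183673079-183674088 (1010 bp, score 55.8), and on the unplaced sequences Un_random (1674 bp, score 56.1) and 1_random (1136 bp, score 54.0). Except for the chromosome 1 peak, these long low-scoring peaks overlapped an H3K9me3 peak of the KO list.

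Each of the 10 highest-scoring KAP1 peaks overlapped a WT H3K9me3 peak, as did 165 of all 372. A WT H4K20me3 peak was met by 6 of the 10 and by 62 of all 372. The part of peak length in these counts was not tested. The first of the 10 by score was chr5:144014675-144017223, the longest of the list at 2549 bp, with a KAP1 score of 3100. It lay inside a WT H3K9me3 peak of 5605 bp (score 2905). The second, chr8:79972320-79973596, scored 2931 over 1277 bp and lay in a WT H3K9me3 peak of 5360 bp. At chr2:157385094-157386547, next in order (score 2112, 1454 bp), the WT H3K9me3 peak extended over 11407 bp. At these 3 places the KAP1 peak was shorter than the H3K9me3 peak that held it.

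The next peaks in order of score were shorter. They were chr6:47974481-47975251 (score 1600, 771 bp), chr10:12810228-12811269 (score 1596, 1042 bp), chr10:79201740-79202624 (score 1585, 885 bp) and chr6:58856622-58857477 (score 1506, 856 bp). Their WT H3K9me3 peaks differed in size. Those of chr10:12810228-12811269 and chr6:58856622-58857477 were 1460 and 1355 bp long with scores of 382 and 306, while that of chr10:79201740-79202624 was 4765 bp long with a score of 2252. A high KAP1 score therefore came with H3K9me3 peaks of very unequal score. The last of the 10 were chr13:64270904-64271531 (score 1166, 628 bp), chr6:30687141-30689004 (score 1165, 1864 bp) and chr3:98231493-98232638 (score 1156, 1146 bp). Chromosome 6 held 3 of the 10 and chromosome 10 held 2. None of the 10 overlapped an H3K9me3 peak of the KO list, and 1, on chromosome 3, overlapped a KO H4K20me3 peak. In the whole list 16 of 372 peaks overlapped each of these KO lists, so the counts among the 10 do not stand apart from it. An absent peak means that none was called there.

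Length alone marked out partly different peaks. Of the 10 longest, 4 were also among the 10 highest by score. After the chromosome 5 peak, the longest were chr7:4981678-4983732 (2055 bp, score 1063), chr6:30687141-30689004 (1864 bp), the Un_random peak of 1674 bp and the chromosome 5 peak of 1472 bp with a score of 71.2. The chromosome 7 peak was on a WT H3K9me3 peak of 469 bp, much shorter than itself, and inside a WT H4K20me3 peak of 3425 bp. The 5 shortest measured 237, 250, 252, 256 and 260 bp, on chromosomes 12, 18, 5, 1 and 15, with scores from 52.7 to 65.6. Each of the 5 was free of both WT marks, as were 195 of all 372 peaks (52.4%). Among the 93 peaks of the lowest quartile of length, 27 were on WT H3K9me3 and 8 on WT H4K20me3. A shorter peak has less room to meet another peak, and the part of length was not tested. The 5 lowest scores of the list ran from 50.1 to 50.4, and these peaks were 337 to 930 bp long.

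KAP1 peaks with both marks had the highest medians of length and score. Median length was 701 bp (interval 609 to 812 bp) at the 50 peaks with H3K9me3 and H4K20me3, 536 bp (486 to 565 bp) at the 115 with H3K9me3 alone and 462 bp (448 to 476 bp) at the 195 with neither. The 12 with H4K20me3 alone had a median of 469 bp with a wide interval (345 to 752 bp). Median scores for the same classes, in that order, were 173, 103, 79.4 and 109. The interval of the score was 116 to 356 with both marks and 71.2 to 87.0 with neither. A longer peak also has more room to meet another peak, and the part of length in this order was not tested. The class without marks was not limited to low scores. Of the 50 highest-scoring peaks, 41 were on WT H3K9me3, and the highest-scoring peak without either mark, chr6:116191965-116192579, ranked 19th with a score of 730 over 615 bp. It lay 189485 bp from the nearest H3K9me3 peak.

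KAP1 peaks were unevenly spread over the chromosomes. Of the 372 peaks, 368 lay on chromosomes 1 to 19 and X, 4 on unplaced sequence and 0 on chromosome Y, whose part covered by any peak list spans 1.48 Mb. Densities are peaks per 100 Mb of the stretch between the outermost peaks of the 5 lists on a chromosome, and their 95% Poisson intervals cover counting error alone. Over chromosomes 1 to 19 and X the density was 14.3 per 100 Mb. Chromosome 17 was highest, with 27 peaks or 29.3 per 100 Mb (interval 19.3 to 42.6). Chromosome 7, with the most peaks (33), had 22.1 per 100 Mb (15.2 to 31.0) and chromosome 10 had 21.3 (14.0 to 31.0). Chromosome 16 was lowest with 3 peaks, or 3.15 per 100 Mb (0.650 to 9.21), followed by chromosome X with 7 peaks (4.28, interval 1.72 to 8.82) and chromosome 9 with 8 (6.62, interval 2.86 to 13.04). With the stretch taken between the outermost KAP1 peaks alone, chromosome X was lowest, at 4.29 per 100 Mb. The interval excluded the density over the 20 chromosomes on 8 of them, above it on 2 and below it on 6.

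**Figure D2:**
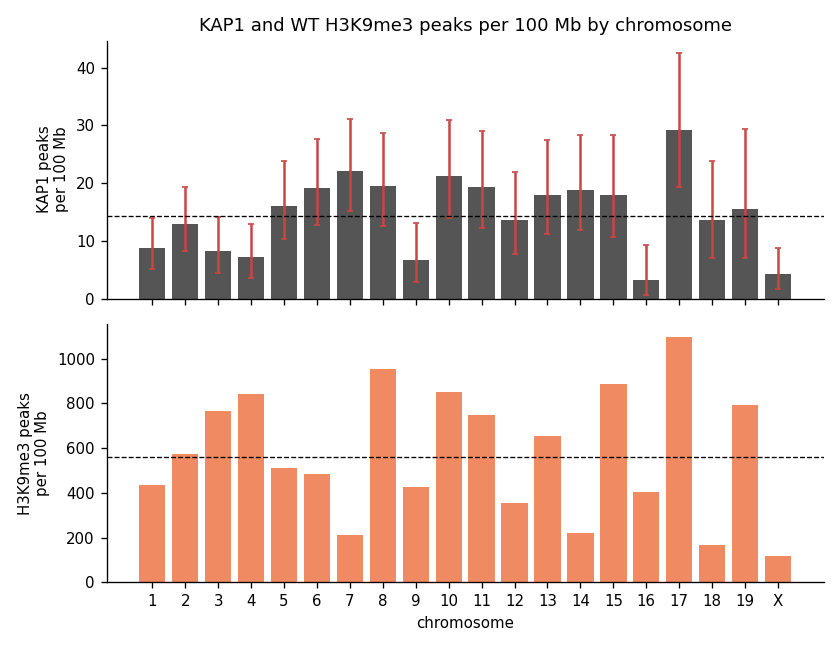
Upper bars give KAP1 peaks per 100 Mb on each chromosome with 95% Poisson intervals, lower bars give WT H3K9me3 peaks per 100 Mb, and dashed lines mark the density over chromosomes 1 to 19 and X. Chromosome 17 is highest for both, while chromosomes 7 and 14 have many KAP1 peaks and few H3K9me3 peaks.

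The rank of chromosomes changed with the score required. With scores of at least 100, chromosome 7 led with 18 peaks (12.1 per 100 Mb), and chromosome 17 kept 9 of its 27 peaks (9.75 per 100 Mb). The median score of all peaks was 73.2 on chromosome 17 and 107 on chromosome 7. On chromosome X none of the 7 peaks reached 100, and the highest was 76.8. The low-scoring X peaks lay far apart, with a median gap of 25672612 bp to the nearest KAP1 peak on X.

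KAP1 density followed that of H3K9me3 only loosely. Over the 20 chromosomes, which share the same 2 libraries, the Spearman rho of both densities was 0.39 and the Pearson r 0.41, given as a description. There were 2.56 KAP1 peaks per 100 WT H3K9me3 peaks over these chromosomes. The number was 10.4 on chromosome 7 (33 KAP1 and 317 H3K9me3 peaks), 8.61 on chromosome 14 (23 and 267) and 8.22 on chromosome 18 (12 and 146). It was 0.857 on chromosome 4 (11 and 1283), 1.09 on chromosome 3 (13 and 1195) and 0.783 on chromosome 16 (3 and 383). The share of KAP1 peaks on H3K9me3 also varied. It was 17 of 25 on chromosome 8 (68.0%, exact interval 46.5 to 85.1%) and 16 of 27 on chromosome 17 (59.3%, 38.8 to 77.6%), against 3 of 23 on chromosome 14 (13.04%, 2.78 to 33.6%) and 2 of 12 on chromosome 18 (16.7%, 2.09 to 48.4%). Chromosomes 8 and 14 had the highest and the lowest share and were picked for it, so their separate intervals do not measure variation between chromosomes. Their WT H3K9me3 densities were 952 and 219 peaks per 100 Mb, and the part of density in the shares was not tested.

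Windows dense in H3K9me3 held more KAP1 peaks per Mb than chromosomes 1 to 19 and X as a whole, but these peaks were mostly low in score. The 10 windows of 1 Mb richest in WT H3K9me3 peaks together held 1028 of them, 7.04% of that list, and 8 KAP1 peaks, 2.15% of theirs. The windows were chosen for their H3K9me3 number, which by itself lowers the number of KAP1 peaks per H3K9me3 peak. That is 80 KAP1 peaks per 100 Mb, against 14.3 over chromosomes 1 to 19 and X, and these peaks lay in 4 of the windows. In 6 of the 10 windows no KAP1 peak was called. The densest window, 146 to 147 Mb of chromosome 4, had 280 H3K9me3 peaks and 0 KAP1 peaks, and the next, 145 to 146 Mb, had 232 and 2. Of the 8 KAP1 peaks, 4 were in the window 17 to 18 Mb of chromosome 17, which had 68 H3K9me3 peaks. Those 4 scored from 58.9 to 103. The rest scored 65.0 and 66.7 on chromosome 4, 51.3 on chromosome 10 and 64.8 on chromosome 8. The comparison was not repeated with a score of at least 100, and no interval was computed. Chromosome 4 also held the widest stretch without a KAP1 peak on any placed chromosome, 95.8 Mb from 32981487 to 128756345. The other way round, 26 of the 368 KAP1 peaks on placed chromosomes lay in windows without an H3K9me3 peak. An H3K9me3 peak was present in 2248 windows, and the stretches of chromosomes 1 to 19 and X came to 2577 Mb. The windows without an H3K9me3 peak were not counted, so the 26 are not read as KAP1 lying apart from H3K9me3.

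Most KAP1 peaks stood alone. The gap between neighbours is counted in bases between peak edges. The median gap to the nearest KAP1 peak was 1571768 bp (interval 1217731 to 1751924 bp), over 371 peaks with a neighbour on the same chromosome or unplaced sequence. Gaps on unplaced sequence may not reflect distances in the genome. Over chromosomes 1 to 19 and X alone the median was 1588499.5 bp (1217731 to 1857035 bp). By size of gap, 6 peaks had a neighbour within 1 kb, 19 at 1 to 10 kb, 39 at 10 to 100 kb, 88 at 100 to 1000 kb and 199 at 1000 to 10000 kb, while 20 were farther than that. A neighbour within 10 kb was present at 25 of 372 peaks (6.72%, exact interval 4.40 to 9.76%), and within 100 kb at 64 (17.2%, 13.5 to 21.4%). Among the 173 peaks with a score of at least 100 these shares were 1.16% (0.140 to 4.11%) and 9.25% (5.38 to 14.6%). In windows of 1 Mb, 263 of the 309 windows with a KAP1 peak held 1 and 36 held 2. Only 10 windows held 3 or 4, with 33 peaks in all.

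**Figure D3:**
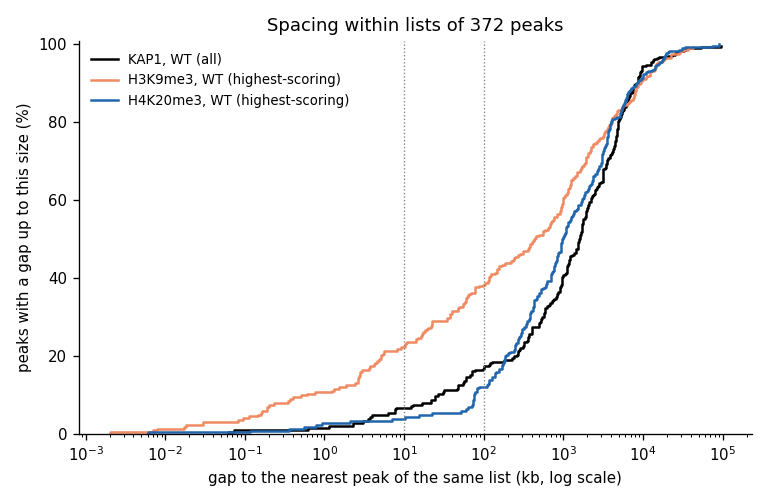
Lines give the percentage of peaks (y) whose gap to the nearest peak of the same list is at most the distance on x (kb, log scale), for the 372 KAP1 peaks and the 372 highest-scoring WT peaks of each mark. Dotted lines mark 10 and 100 kb, where the KAP1 line is at 6.72 and 17.2% and the H3K9me3 line at 22.3 and 38.2%.

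KAP1 peaks were less crowded than an equal number of strong H3K9me3 peaks. Compared with strong H4K20me3 peaks, a higher share had a near neighbour, yet their median gap was longer. The thresholds are unlike. The whole KAP1 list, from a score of 50.1, is set against the top of longer lists, from 377 for H3K9me3 and 802 for H4K20me3. Among the 372 highest-scoring WT H3K9me3 peaks, 83 had a neighbour within 10 kb (22.3%, interval 18.2 to 26.9%) and 142 within 100 kb (38.2%, 33.2 to 43.3%). Among the 372 highest-scoring WT H4K20me3 peaks the numbers were 14 (3.76%, 2.07 to 6.23%) and 45 (12.1%, 8.96 to 15.8%). Median gaps were 423197 bp for H3K9me3 and 977193 bp for H4K20me3, against 1571768 bp for KAP1. The KAP1 intervals of the shares lie wholly below those of H3K9me3 at both distances. They overlap those of H4K20me3, and intervals of the differences were not computed. A long histone domain can be called as several adjoining peaks, so these counts describe calls and not separate binding events. The largest cluster within 100 kb held 18 peaks among the strong H3K9me3 peaks, and 4 for KAP1.

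Within 10 kb, KAP1 peaks formed 12 clusters on 10 chromosomes, 11 pairs and 1 group of 3. They extended over 1282 to 12102 bp, with a median of 4745 bp. Of the 11 pairs, 9 joined a peak scoring at least 100 to one scoring under 100. At 100 kb this held for 11 of 25 pairs, and of all KAP1 peaks 46.5% scored at least 100. Requiring a score of at least 100 for every peak left 1 cluster of the 12.

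**Figure D4:**
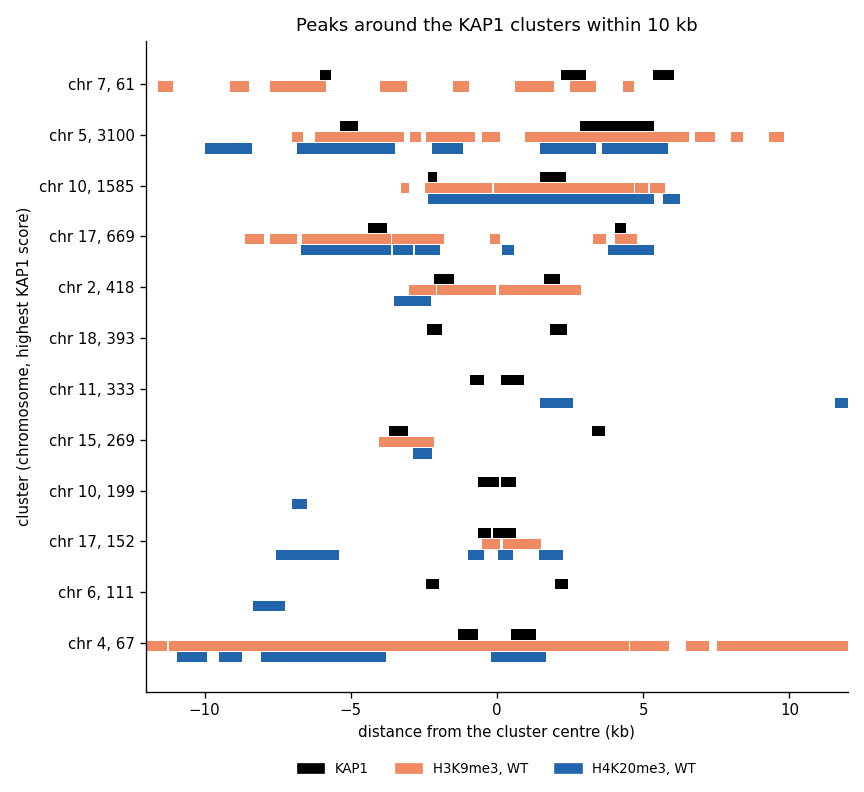
Each row is 1 of the 12 clusters within 10 kb, named by chromosome and highest KAP1 score, with KAP1 (black), WT H3K9me3 (orange) and WT H4K20me3 (blue) peaks by distance in kb from the cluster centre. In 6 rows every KAP1 peak overlaps H3K9me3, and in 4 rows none does.

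The pair with the highest score was chr5:144006460-144017223. Its peaks, with scores of 172 and 3100, were 7599 bp apart and lay on separate WT H3K9me3 peaks of 3068 and 5605 bp, both with H4K20me3. The pair chr10:79197895-79202624 (scores 54.7 and 1585, gap 3530 bp) likewise lay on 2 H3K9me3 peaks and under 1 long H4K20me3 peak of 7744 bp. On chromosome 17, chr17:87524611-87533434 (scores 669 and 65.8, gap 7781 bp) carried both marks at both peaks. So did chr17:35094301-35095611 (scores 73.2 and 152), whose peaks were the closest of the list, 62 bp apart. The pair chr2:174121210-174125544 (scores 418 and 99.2) was on H3K9me3 alone. In the sixth, chr4:145424898-145427555, both peaks scored low (66.7 and 65.0) but lay within a single H3K9me3 peak of 8073 bp with a score of 2379.

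In 4 clusters within 10 kb no KAP1 peak was on H3K9me3. At chr18:74520015-74524774 (scores 92.1 and 393) the nearest WT H3K9me3 peak was 567307 bp away. At chr10:80826603-80827884 (scores 199 and 79.4) it was 102700 bp away, at chr6:52114219-52119101 (scores 79.9 and 111) 36742 bp and at chr11:74979176-74981030 (scores 81.8 and 333) 20705 bp. None of these 8 peaks overlapped a WT H4K20me3 peak either. The nearest H4K20me3 peak was 546 bp away at the chromosome 11 pair, 4823 bp at the chromosome 6 pair, 5855 bp at the chromosome 10 pair and 91678 bp at the chromosome 18 pair. Within 100 kb of the chromosome 6 pair there were 9 H3K9me3 and 7 H4K20me3 peaks. In the remaining pair, chr15:99414190-99421591, the higher peak (score 269) was on H3K9me3, and the lower (82.3) was 5398 bp from the nearest H3K9me3 peak.

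The group of 3 was chr7:67029557-67041658. Its peaks scored 58.9, 60.6 and 50.9 over 390, 837 and 728 bp, all under the median of the list, as were those of the chromosome 4 pair. The first and the second lay on WT H3K9me3 peaks, and the first and the last overlapped H3K9me3 peaks of the KO list.

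Within 100 kb there were 29 clusters with 64 peaks on 13 chromosomes, 25 of them pairs, 2 groups of 3 and 2 groups of 4. Chromosome 17 held 5 of the 29, with 14 of its 27 peaks, and had a median gap of 97129 bp. Without chromosome 17, chosen after its count was seen, 50 of 345 peaks had a neighbour within 100 kb (14.5%, interval 11.0 to 18.7%). The groups of 4 were chr17:35033191-35109146, with scores from 73.2 to 152 and 3 peaks on H3K9me3, and chr7:66951691-67041658, which adds a peak of score 52.6 to the group of 3. Both groups of 3 were on chromosome 17. At chr17:87478157-87533434 another peak of score 51.7 joined the pair described above, and at chr17:17304682-17450086 the scores were 58.9, 76.6 and 90.3. The largest clusters thus consisted mostly of peaks under a score of 100.

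The 8 clusters within 100 kb that held 2 peaks with a score of at least 100 were all pairs. One was the chromosome 5 pair with the score of 3100. The pair chr7:6084013-6141686 scored 643 and 559 at peaks 56058 bp apart, and both of its peaks carried H4K20me3. At chr10:58954134-59010208 the scores were 227 and 213, and both peaks lay on H3K9me3. No H3K9me3 peak lay between the ends of 3 of the 8, chr14:63787689-63859957 (220 and 111), chr10:83363286-83385982 (131 and 125) and chr5:93271440-93372140 (124 and 104).

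Clustered and isolated KAP1 peaks differed little in median score at 100 kb, while the share of clustered peaks was higher among longer peaks. Median length was 523 bp (interval 484 to 602 bp) for the 64 clustered peaks and 483 bp (462 to 507 bp) for the 308 isolated ones, and median scores were 93.5 and 92.1. The share with a neighbour within 100 kb was 17.2, 17.2, 15.1 and 19.4% from the lowest to the highest quartile of score. By quartile of length it rose at each step, from 9.68 to 17.2, 18.3 and 23.7%. The separate intervals were 4.52 to 17.6% for the shortest and 15.5 to 33.6% for the longest. Their overlap does not measure the difference, whose own interval was not computed.

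H3K9me3 was called at similar shares of clustered and isolated peaks. It was present at 30 of 64 clustered peaks (46.9%, exact interval 34.3 to 59.8%) and at 135 of 308 isolated peaks (43.8%, 38.2 to 49.6%). The difference was 3.04 percentage points (Newcombe interval -9.92 to 16.3), so a difference of either sign lay within counting error. For H4K20me3 the shares were 14 of 64 (21.9%) and 48 of 308 (15.6%), a difference of 6.29 points (-3.20 to 18.4). Counting H4K20me3 peaks up to 1 kb away, the shares were 31.2 and 17.5%, a difference of 13.7 points (2.68 to 26.5). Without chromosome 17 and with overlap required, the differences were -3.73 points (-17.4 to 11.2) for H3K9me3 and 1.08 points (-7.81 to 14.1) for H4K20me3. With neighbours within 10 kb the H4K20me3 shares were 9 of 25 (36.0%, 18.0 to 57.5%) and 53 of 347 (15.3%, 11.7 to 19.5%), a difference of 20.7 points (4.43 to 40.5). The H3K9me3 shares at 10 kb were 60 and 43.2%, with an interval of the difference of -3.19 to 34.1 points. Peaks of a cluster share a locus, so the intervals are too narrow. The 25 peaks within 10 kb were also longer, with a median of 616 bp (468 to 707 bp) against 486 bp (469 to 507 bp), and the part of length in the H4K20me3 difference was not tested.

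Clustered peaks had higher median numbers of histone peaks around them. Within 100 kb of a KAP1 peak the median number of WT H3K9me3 peaks was 9 for the 25 peaks clustered within 10 kb and 2 for the other 347. For H4K20me3 the medians were 5 and 1. With clusters at 100 kb the medians were 4.5 and 2 for H3K9me3, and 3 and 1 for H4K20me3. Peaks of a cluster share their surroundings, so the 25 peaks stand for 12 clusters, and no interval was computed. The clusters also differed, with 50 H3K9me3 peaks around each peak of the chromosome 4 pair and 0 around each of the chromosome 18 pair.

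H3K9me3 peaks that met KAP1 had higher medians of length and score than that list as a whole. The 165 overlapping KAP1 peaks met 164 different H3K9me3 peaks as their largest overlap. These had a median length of 1008 bp and a median score of 205, whereas the medians of all WT H3K9me3 peaks were 459 bp and 74.8. At 75 of the 165 the KAP1 peak lay wholly inside the H3K9me3 peak (45.5%, interval 37.7 to 53.4%), at 12 it spanned the whole H3K9me3 peak and at 78 the edges crossed. The KAP1 centre fell in the central 50% of the H3K9me3 peak in 97 cases and outside the H3K9me3 peak in 25. H4K20me3 peaks at KAP1 were long too, with a median of 1366 bp against 766 bp for that list, and 32 of 62 KAP1 peaks lay wholly inside them. The part of peak length in these overlaps was not tested.

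Most KAP1 peaks without an H3K9me3 overlap lay more than 10 kb from the nearest H3K9me3 peak. The same shares were not computed for places without KAP1, so the counts do not show whether this is far or near. Of these 207 peaks, 15 lay within 1 kb of a WT H3K9me3 peak, 37 within 10 kb and 107 within 100 kb, with a median distance of 92664 bp. Counting peaks within 10 kb, H3K9me3 was on or near 202 of the 372 KAP1 peaks (54.3%). The other 100 of the 207 were more than 100 kb from any called H3K9me3 peak, and 4 were more than 1 Mb away.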

How the data were processed

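The peak lists of 5 ChIP-seq libraries were used as deposited. The authors worked on build mm9 with MACS 1.4, Bowtie2 2.2.1 and CASAVA 1.82, per the submitters' processing notes. The sources used here do not give the parameters of the calls. The KAP1 peaks were called from 1 library against 1 WT MEF library, per the file headers. Each list deposited by the authors gives a position and a score per peak. The lowest score is about 50 in each list, as for a MACS score, a reading that rests on the values. Such a score grows with depth and peak width. Read counts are not part of the files, and the depth is unknown. The 3 inputs were not analysed here.

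Starts are printed counting from 1. Clusters are chains of 2 or more peaks with gaps of at most 10 or 100 kb, and overlap means at least 1 bp. Python 3.11.15, numpy 2.4.6, pandas 2.3.3, scipy 1.17.1, statsmodels 0.14.6 and matplotlib 3.10.9 were used. Clusters and overlaps were checked against bedtools 2.31.1 and on simulated lists with planted clusters. Intervals are at 95% (Clopper-Pearson for shares, binomial for medians, Poisson for densities) and cover counting error over peaks. Each group holds 1 library, so replicate error is unknown and no test was made. Alternatives were a KAP1 or histone score of at least 100, other overlap, distance and cluster rules, KAP1 peaks closer than 1 kb merged, and chromosomes left out.

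Named peaks are the 10 with the highest score, the 5 longest, the 5 shortest, the 5 with the lowest score (as a range), every cluster of 3 or more peaks within 10 kb, the 5 largest clusters within 100 kb and the 3 chromosomes at either end of density. Other peaks, pairs, windows and chromosomes were chosen after their values were seen. The members and rules were chosen with earlier results of these data known. No annotation or genome of build mm9 was used here, so peaks are given by position, without genes or sequence, and the planned gene lists were not run.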

Additional observations from a re-analysis of the deposited data

How the results depend on the processing

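No paired analysis was possible because each group holds 1 library. Of 106 recomputed values, 88 stayed within the 95% interval of the reported value, or within 1.5 times for counts. The 88 include changes of sign and of named chromosome. The clustered minus isolated difference for H3K9me3, reported as 3.04 points, was -5.41 with a KAP1 score of at least 100. With close KAP1 peaks merged it was 5.60. Both count among the 88. With a KAP1 score of at least 100 the list held 173 peaks, with a median length of 584 bp, a median score of 199, a median gap of 3683470 bp, shares of 1.16% and 9.25% with a neighbour within 10 and 100 kb, and 1 and 8 clusters. The highest density was then 12.1 per 100 Mb, on chromosome 7, and the lowest 0, on chromosome X. Isolated peaks lay on H3K9me3 in 55.4% and on H4K20me3 in 23.6% of cases. The H3K9me3 share of isolated peaks was 36.4% where 50% of the KAP1 peak had to be covered and 35.1% with histone scores of at least 100. With clusters defined at 10 kb, clustered peaks lay on H3K9me3 in 60% and on H4K20me3 in 36.0% of cases. The causes of these changes were not tested. A score of at least 100 also leaves smaller lists, and the part of list size was not tested either. The lists carry no depth, so a peak under the threshold cannot be told apart from a place without KAP1.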

Other observations

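KAP1 peaks at places where the KO list has an H3K9me3 peak were longer and mostly lower in score than the rest. There were 16 such peaks, with a median length of 814 bp (interval 541 to 959 bp) and a median score of 61.8 (52.6 to 116). The other 356 had medians of 486 bp (468 to 504 bp) and 94.9 (83.7 to 105). The length intervals do not overlap and the score intervals do. A longer peak has more room to meet a KO peak, and the part of length was not tested. The 16 are not all separate places, as 3 belonged to the group of 4 on chromosome 7. Another 3 lay on unplaced sequence. Of the 16, 4 scored at least 100, against 169 of the other 356 (47.5%), and the peak at chr9:89774215-89775000 scored 1014. In WT cells 6 of the 16 overlapped no H3K9me3 peak, a smaller share than the 201 of the other 356. Among the 6 were chr5:16973924-16975395 and chr8:71998268-71999226 (959 bp, score 64.8).

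The 4 KAP1 peaks on unplaced sequence had scores from 53.4 to 56.8 and lengths of 438, 825, 1136 and 1674 bp. Of these, 3 overlapped WT H3K9me3 and 3 overlapped KO H3K9me3. None carried H4K20me3. Their positions relative to placed chromosomes are not known.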
